A study of Drosophila melanogaster with 4 samples.

Results

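The NPC1 and NPC2 genes of Drosophila melanogaster encode the membrane and the soluble proteins that hand sterol out of the lysosome. The members were the 10 genes with the FlyBase symbols Npc1a, Npc1b and Npc2a to Npc2h, found by gene identifier among the 17409 genes counted, and all 10 had a row in each library. Of these, 6 passed the filter on low counts. Npc1a, Npc2a, Npc2b and Npc2g were higher in seminal vesicle, Npc2f and Npc2h were not called, and Npc1b, Npc2c, Npc2d and Npc2e were at or near 0 counts in both tissues.

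Poly(A) RNA was sequenced from seminal vesicles and from testes of adult males of the Oregon-R-modENCODE strain, aged 4 to 5 days and kept at 25 °C under constant light. Seminal vesicles are the sacs that store mature sperm, and these 2 libraries include the testis terminal epithelium, which lies where they meet the testis. The other 2 libraries are of the testis, where sperm are made. Both groups were of the same strain and untreated, the 2 replicates came from dissections on 2 consecutive days, males were aged in groups, and the number of animals per library is not given in the sources used here. Each group is a mixture of cell types, so in these bulk samples fewer cells of a type and less RNA per cell cannot be told apart.

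Sterol that enters a cell by endocytosis is released in the lysosome, where the small soluble protein NPC2 binds it and passes it to NPC1, a large protein spanning the lysosomal membrane. Loss of either protein in humans causes Niemann-Pick type C disease, in which sterol builds up in lysosomes. Flies cannot make sterols and take them from food, and they turn them into the steroid hormone ecdysone. Fly Npc1a is needed in ecdysone-making cells and for spermatogenesis, while fly Npc1b acts in sterol uptake in the midgut. Fly Npc2a and Npc2b share a role in sterol balance, and the fly proteins Npc2a, Npc2e and Npc2h have been described as binding microbial surface molecules. In mammals, NPC2 is secreted in quantity by the epididymis, the duct in which sperm mature.

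Gene counts summed to 13385256 and 11120405 in the seminal vesicle libraries and to 14088989 and 15528462 in the testis libraries. Levels are TMM-scaled counts in units of CPM, which divides by library size. A positive log2 fold change means a higher level in seminal vesicle, and SE is its standard error. Each adjusted p is from edgeR's quasi-likelihood test, adjusted by Benjamini-Hochberg across the 11737 genes tested. Most genes differed between these tissues: 4944 (42.1%) were higher in seminal vesicle, and testis had the higher level for 5223 (44.5%). With spike-in scaling the split was 3272 and 6372. That scaling shifted the median over all tested genes by -1.06 on the log2 scale, to -1.17 against -0.11 with TMM. The spike-in RNA pools differed between the tissues, so an effect of the pool cannot be told apart from one of tissue. Each call gained or lost with spike-in factors below carries this limit. Germline markers from a fixed list of 10 genes summed to 423 and 904 CPM in seminal vesicle and to 5547 and 6318 CPM in testis, and all 10 were higher in testis.

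The members sit on 2L, 3R and X of the Release 6 assembly. Npc1a (FBgn0024320) lies at 2L, 10213812 to 10221216, minus strand, and its 7 annotated transcripts have 12 exons each and encode proteins of 1283 to 1287 residues. Npc1b (FBgn0261675) lies at X, 20934869 to 20939503, plus strand, with 1 transcript of 6 exons and a protein of 1254 residues. The 8 NPC2 genes are far smaller: exon lengths ran from 651 bp for Npc2a to 922 bp for Npc2b, and the encoded proteins from 130 to 173 residues. Npc2a (FBgn0031381; 2L, 1988290 to 1988940, plus strand) has a single exon. Npc2b (FBgn0038198; 14089517 to 14092425, plus strand) and Npc2f (FBgn0039154; 24137895 to 24140936, plus strand) stand alone on 3R. The other NPC2 genes form 2 clusters on the same arm. One holds Npc2e, Npc2d and Npc2c within 7805 bp (10053332 to 10061136), and the other holds Npc2g (FBgn0039800; 30744605 to 30745263) and Npc2h (FBgn0039801; 30745479 to 30746290), both on the minus strand and 215 bp apart. No member shares exon bases with another gene on its own strand.

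Npc1a, the lysosomal membrane transporter of the pair, was higher in seminal vesicle. It had 13420 and 11755 counts in seminal vesicle, or 1095 and 1259.7 CPM, against 2632 and 2522 counts in testis, or 159 and 147 CPM. Both seminal vesicle libraries lay far above both testis libraries, and replicates of a tissue were close. The mean was 1178 ± 116 CPM in seminal vesicle and 153 ± 8.21 CPM in testis (SD, n = 2 each), 7.7-fold (log2 fold change 2.94 ± 0.28 SE, adjusted p = 0.000175). Of all tested genes, 18.6% had a larger log2 fold change. Npc1b, the midgut paralog, had 1 and 3 counts in seminal vesicle and 3 and 1 counts in testis. It did not pass the filter. The ratio of its summed counts, seminal vesicle over testis, was 1.56 with a 95% counting interval of 0.291 to 8.39. This ratio and the later ratios of summed counts were corrected for TMM-scaled library size. In both tissues nearly all NPC1 family counts were those of Npc1a.

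Npc2a, the most expressed of the soluble sterol-binding proteins, was also higher in seminal vesicle. It had 4866 and 2948 counts in seminal vesicle, or 397 and 316 CPM, against 370 and 354 counts in testis, or 22.3 and 20.7 CPM. The groups did not overlap, and seminal vesicle replicate 1 was above replicate 2. The mean was 357 ± 57.4 CPM in seminal vesicle and 21.5 ± 1.18 CPM in testis, 16.6-fold (log2 fold change 4.05 ± 0.29 SE, adjusted p = 6.33e-05). Per kb of exon, which makes genes of unequal length comparable, the level of Npc2a over that of Npc1a was 2.9 and 2 in the seminal vesicle libraries and 1.12 and 1.12 in the testis libraries. This ratio within a library does not depend on scaling between libraries, and it was higher in both seminal vesicle libraries than in both testis libraries. With 2 libraries against 2, an exact two-sided permutation test cannot give a p below 0.333.

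Npc2b, which overlaps Npc2a in function in flies, differed less. It had 195 and 126 counts in seminal vesicle, or 15.9 and 13.5 CPM, against 117 and 120 counts in testis, or 7.06 and 7 CPM. The means were 14.7 ± 1.71 CPM in seminal vesicle and 7.03 ± 0.0397 CPM in testis, 2.1-fold (log2 fold change 1.07 ± 0.18 SE, adjusted p = 0.00193). The difference was not shown to exceed 2-fold (edgeR glmTreat, adjusted p = 0.209), and with spike-in scaling the log2 fold change was 0.00 (adjusted p = 0.992). The groups did not overlap with TMM scaling, and the call was lost on the spike-in scale.

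Npc2g had the largest fold change of the members. It had 161 and 151 counts in seminal vesicle, or 13.1 and 16.2 CPM, against 4 and 6 counts in testis, or 0.241 and 0.35 CPM. The seminal vesicle libraries stood at a moderate level and the testis libraries barely above the limit of detection. The mean was 14.7 ± 2.15 CPM in seminal vesicle and 0.296 ± 0.0769 CPM in testis, 47.9-fold (log2 fold change 5.58 ± 0.32 SE, adjusted p = 3.69e-05). Of the tested genes, 464 (3.95%) had a larger log2 fold change.

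Npc2h, the direct neighbour of Npc2g and one of the members described as binding microbial surface molecules, was not called. It had 116 and 134 counts in seminal vesicle, or 9.47 and 14.4 CPM, against 247 and 282 counts in testis, or 14.9 and 16.5 CPM. The testis libraries were both above the seminal vesicle libraries, though seminal vesicle replicate 2 came close to testis replicate 1. The mean was 11.9 ± 3.46 CPM in seminal vesicle and 15.7 ± 1.1 CPM in testis (log2 fold change -0.41 ± 0.24 SE, 95% interval -0.99 to 0.18, adjusted p = 0.152). The call depended on the setting: Npc2h passed as higher in testis with library size only (log2 fold change -0.79, adjusted p = 0.00976), with spike-in factors (-1.46, adjusted p = 4.61e-05) and without seminal vesicle replicate 2 (-0.74, adjusted p = 0.00149).

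The balance between these neighbours differed between the tissues. The ratio of Npc2g counts to Npc2h counts was 1.39 and 1.13 in the seminal vesicle libraries and 0.0162 and 0.0213 in the testis libraries. On the log2 scale the fold changes of the 2 genes differed by 5.99. In seminal vesicle the neighbours stood at a similar count, while in testis Npc2h had nearly all of the pair's counts. As a ratio within a library, this too is free of the scaling between libraries.

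Npc2f, for which no role is given here, was low in both tissues. It had 15 and 4 counts in seminal vesicle, or 1.22 and 0.429 CPM, against 13 and 12 counts in testis, or 0.784 and 0.7 CPM. The seminal vesicle libraries lay on either side of the testis libraries (log2 fold change 0.22 ± 0.54 SE, 95% interval -1.11 to 1.56, adjusted p = 0.706). The interval is wide enough to hold a 2-fold difference in either direction. The direction was negative with library size only (-0.14), with spike-in factors (-0.83) and without seminal vesicle replicate 1 (-0.77).

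The 3 clustered genes Npc2c, Npc2d and Npc2e were barely counted. Npc2c (FBgn0037783) had 0 counts in all 4 libraries, which allows levels of up to 0.245 and 0.321 CPM in seminal vesicle and 0.181 and 0.175 CPM in testis (3 counts per library, counting error only). Npc2d (FBgn0037782) had 0 and 1 counts in seminal vesicle and 0 and 7 counts in testis, so that all testis counts came from replicate 2. The ratio of its summed counts, seminal vesicle over testis, was 0.223 with a 95% counting interval of 0.00495 to 1.74. Npc2e (FBgn0051410), one of the proteins described as binding microbial surface molecules, had 1 and 0 counts in seminal vesicle and 1 and 1 counts in testis. Antisense RNAs overlap part of this cluster: asRNA:CR45205 covers 58.5% of the exon bases of Npc2c and asRNA:CR44192 covers 92.4% of those of Npc2e. asRNA:CR45205 had 0 and 1 counts in seminal vesicle and 24 and 30 counts in testis, a ratio of 0.0289 with a 95% counting interval of 0.000719 to 0.168. asRNA:CR44192 had 2 and 1 counts in seminal vesicle and 1 and 1 counts in testis. Whether the counting used strand is not stated for these data. If it did not, reads in the overlaps may have been set aside as ambiguous. The counts and limits of Npc2c and Npc2e could then be too low, which was not tested.

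**Figure D1:**
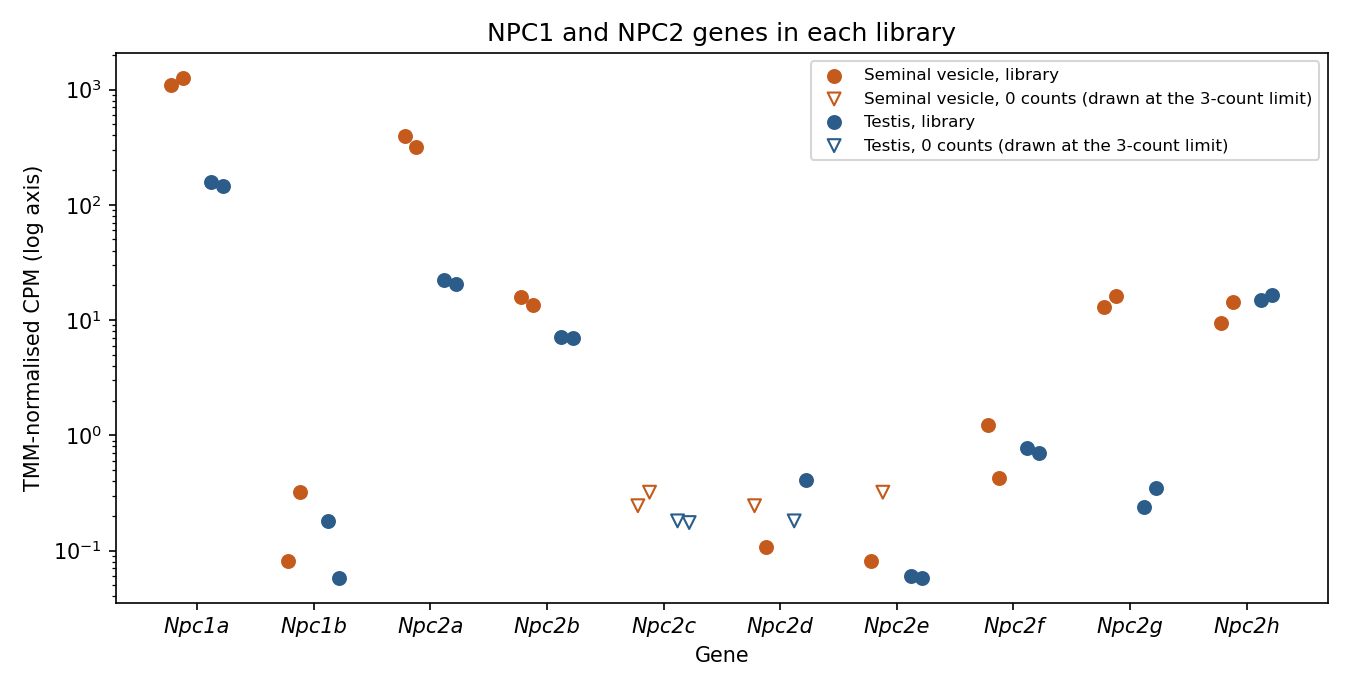
TMM-normalised CPM of each NPC gene in each library on a log axis, with the 2 seminal vesicle libraries left of the 2 testis libraries. Triangles mark 0 counts and are drawn at the level that 3 counts would give. Npc1a, Npc2a, Npc2b and Npc2g show seminal vesicle libraries above testis libraries, Npc2h shows the reverse order, and Npc1b, Npc2c, Npc2d and Npc2e stay near the limit of detection.

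In all, 4 of the 10 members were higher in seminal vesicle and 0 in testis, with 6 members tested and 4 too low to test. Over tested genes only, 42.1% were called towards seminal vesicle and 44.5% towards testis. At an unadjusted p under 0.05 the count higher in testis was also 0, and DESeq2 and limma voom gave 0 as well. In either direction 86.6% of tested genes were called. Of the 4, 3 exceeded 2-fold (Npc1a, Npc2a and Npc2g; glmTreat), where 33.5% of tested genes did so, and 0 exceeded it towards testis, where 36.7% did. The median log2 fold change of the 6 members tested was 2.01, beside -0.11 for all tested genes. Npc2g, with 4 and 6 counts in testis, passed the filter only through its seminal vesicle counts. A gene so filtered could only be tested as high in seminal vesicle, so these counts and the median rest in part on the filter. The 4 members left out by the filter had at most 7 counts in any library. Npc1a, Npc2a and Npc2g were called under each of the 13 alternatives run, and Npc2b under 12 of them.

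**Figure D2:**
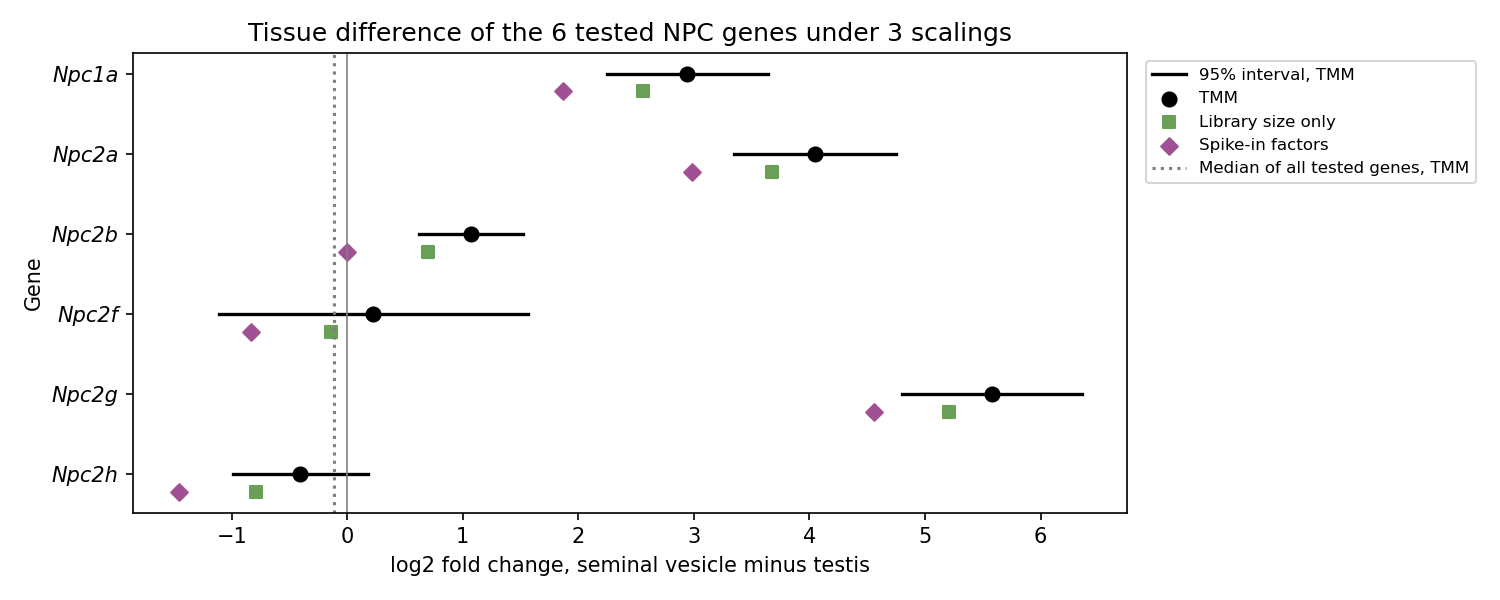
The log2 fold change, seminal vesicle minus testis, of the 6 tested NPC genes. Black points and bars are the TMM fit with its 95% interval, squares use library size only, diamonds use spike-in factors, and the dotted line is the median of all tested genes (-0.11). Npc1a, Npc2a and Npc2g lie to the right of 0 under all 3 scalings, Npc2b reaches 0.00 with spike-in factors, and Npc2h lies left of 0.

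Compared per kb of exon, the order of levels was partly shared between the tissues. In seminal vesicle Npc2a stood first with 548 ± 88.2 CPM per kb, followed by Npc1a with 227 ± 22.4, Npc2g with 22.2 ± 3.26, Npc2b with 16 ± 1.85, Npc2h with 14.7 ± 4.26 and Npc2f with 1.16 ± 0.79 CPM per kb. In testis Npc2a stood first with 33 ± 1.81 CPM per kb, followed by Npc1a with 29.4 ± 1.58, Npc2h with 19.3 ± 1.35, Npc2b with 7.62 ± 0.0431, Npc2f with 1.04 ± 0.0834 and Npc2g with 0.449 ± 0.117 CPM per kb. Npc2g thus held the third place in seminal vesicle and the sixth in testis. In seminal vesicle the library values of Npc2b and Npc2h overlapped, as did those of Npc2d, Npc2e and Npc1b in turn, so their order is not beyond the spread. In testis Npc2g overlapped Npc2d, and Npc2d overlapped Npc2e. Among 17172 genes ranked by CPM per kb, 99% had a lower level than Npc2a in seminal vesicle and 84.5% in testis. For Npc1a these shares were 97.9% in seminal vesicle and 83.5% in testis, and for Npc2h 76.9% in seminal vesicle and 79.5% in testis.

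The make-up of the NPC2 family differed between the tissues. The 8 genes summed to 437 and 360.5 CPM in seminal vesicle and to 45.4 and 45.6 CPM in testis. Npc2a took 90.9% (95% exact binomial interval 90.1 to 91.6) and 87.6% (86.5 to 88.7) of the family's counts in seminal vesicle, against 49.2% (45.6 to 52.8) and 45.3% (41.7 to 48.8) in testis. Npc2h took 2.17% and 3.98% in seminal vesicle, against 32.8% and 36.1% in testis. Npc2b took 3.64% and 3.75% in seminal vesicle, against 15.6% and 15.3% in testis. Npc2g took 3.01% and 4.49% in seminal vesicle, against 0.532% and 0.767% in testis. The seminal vesicle family was thus mostly Npc2a, while the testis family was divided among Npc2a, Npc2h and Npc2b. Within a library the shares depend on each other, since a larger share of Npc2a leaves less for the rest. Npc2b had the smaller share in seminal vesicle, yet its mean level was 14.7 CPM there and 7.03 CPM in testis. The shares are of counts within a library and do not depend on scaling between libraries. The smallest p an exact two-sided permutation test of these shares can give is again 0.333, so the difference in shares is given without a test.

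**Figure D3:**
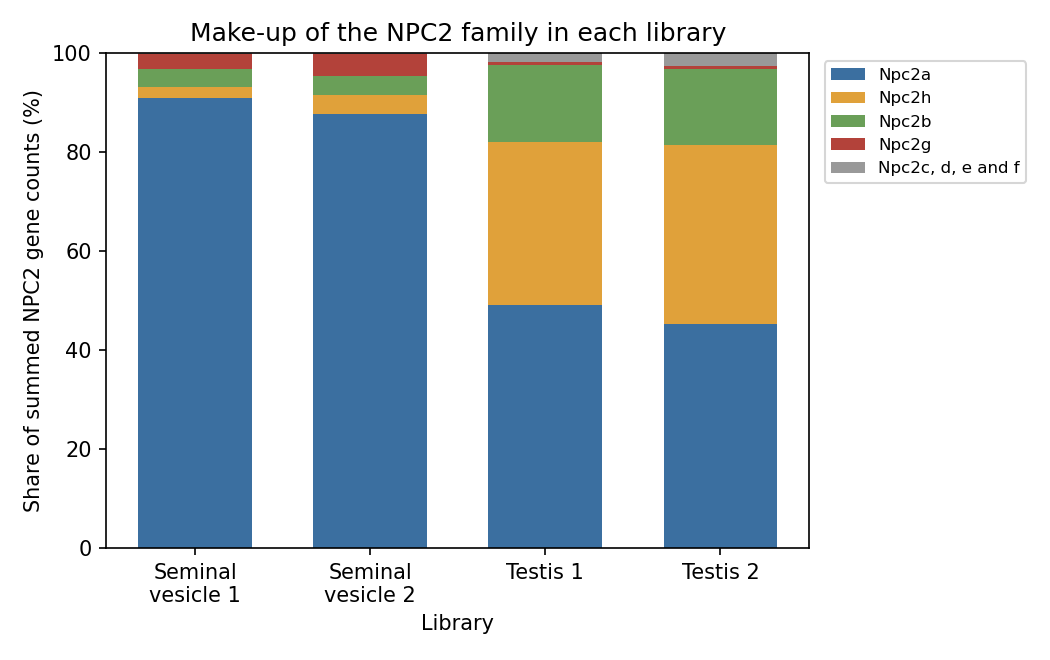
Share of the summed NPC2 gene counts taken by each gene, in percent, for each library, with seminal vesicle bars left of testis bars. Blue, Npc2a, fills 90.9% and 87.6% of the seminal vesicle bars and 49.2% and 45.3% of the testis bars, and orange, Npc2h, fills 32.8% and 36.1% of the testis bars.

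Other proteins carry the sterol-sensing domain found in NPC1. The 4 genes for such proteins described here were higher in seminal vesicle, beside 42.1% of all tested genes, and with spike-in factors 3 of the 4 were. SCAP, which escorts the lipid-synthesis regulator SREBP, averaged 108 ± 10.2 CPM in seminal vesicle and 10.2 ± 2.93 CPM in testis (log2 fold change 3.40 ± 0.27 SE, adjusted p = 0.000103). Ptr, a gene related to the Hedgehog receptor gene ptc, averaged 90.4 ± 1.04 CPM in seminal vesicle and 20.2 ± 2.8 CPM in testis (log2 fold change 2.16 ± 0.20 SE, adjusted p = 0.000147). ptc itself averaged 17.8 ± 3.99 CPM in seminal vesicle and 2.97 ± 0.322 CPM in testis (adjusted p = 0.000173). The median log2 fold change of these 4 genes was 2.38.

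Among all tested genes, 42.1% were higher in seminal vesicle and 44.5% in testis. Of 17 tested genes of sterol and lysosomal lipid handling, 13 were higher in seminal vesicle and 2 in testis, with a median log2 fold change of 2.37. With spike-in factors 9 were higher in seminal vesicle and 2 in testis. Lamp1, the major lysosomal membrane glycoprotein, averaged 1113 ± 91.4 CPM in seminal vesicle and 193 ± 27.8 CPM in testis (log2 fold change 2.52 ± 0.29 SE, adjusted p = 0.000344). Acsl, a long-chain acyl-CoA synthetase, averaged 421 ± 61.9 CPM in seminal vesicle and 135 ± 3.19 CPM in testis (adjusted p = 0.00141), and was not called with spike-in factors (adjusted p = 0.238). Lip4, of the acid lipase family, averaged 231 ± 54.6 CPM in seminal vesicle and 3.36 ± 0.456 CPM in testis (log2 fold change 6.10 ± 0.34 SE, adjusted p = 3.49e-05). Lip1, of the same family, had 0 counts in seminal vesicle and 25 in testis, which makes it at least 5.33-fold lower in seminal vesicle against 3 counts over both libraries.

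Of 11 tested genes of lipoprotein uptake and transfer, 9 were higher in seminal vesicle and 1 in testis, with a median log2 fold change of 3.12. The shares of all tested genes were 42.1% and 44.5%. With spike-in factors the lipoprotein counts were 9 and 2. NLaz, a lipocalin related to apolipoprotein D, averaged 3486 ± 232 CPM in seminal vesicle and 22.8 ± 1.59 CPM in testis (log2 fold change 7.25 ± 0.35 SE, adjusted p = 3.18e-05). The related GLaz averaged 121 ± 22.7 CPM in seminal vesicle and 5.82 ± 0.808 CPM in testis (adjusted p = 4.1e-05). mgl, the endocytic receptor megalin, averaged 772 ± 261 CPM in seminal vesicle and 39.9 ± 0.94 CPM in testis (adjusted p = 0.00012). Of 7 tested scavenger receptors of the CD36 family, 6 were higher in seminal vesicle and 1 in testis, with a median log2 fold change of 3.09. With spike-in factors these receptor counts were again 6 and 1. emp averaged 2557 ± 539 CPM in seminal vesicle and 519 ± 23.6 CPM in testis, crq 253 ± 14.5 CPM in seminal vesicle and 29.7 ± 4.72 CPM in testis, and Snmp2 51.4 ± 11.5 CPM in seminal vesicle and 1.42 ± 0.0335 CPM in testis, with adjusted p-values of at most 0.000649. The exception, dsb, averaged 0.161 ± 0.227 CPM in seminal vesicle and 6.9 ± 0.802 CPM in testis (log2 fold change -5.54 ± 0.64 SE, adjusted p = 0.000442). With 3 counts in seminal vesicle and 233 in testis, the ratio of its summed counts was 0.0201 with a 95% counting interval of 0.00412 to 0.0595. All 3 came from seminal vesicle replicate 2, and without replicate 1 the log2 fold change was -4.38.

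Of 17 tested genes of lysosomal membranes and hydrolases, 13 were higher in seminal vesicle and 3 in testis, with a median log2 fold change of 2.52. The shares of all tested genes were 42.1% and 44.5%. With spike-in factors the counts of this list were 11 and 4. Sap-r, the saposin precursor, averaged 5016 ± 676 CPM in seminal vesicle and 354 ± 0.949 CPM in testis (log2 fold change 3.83 ± 0.31 SE, adjusted p = 9.72e-05). CtsL1, the lysosomal protease cathepsin L, averaged 2685 ± 66.8 CPM in seminal vesicle and 189 ± 8.85 CPM in testis (adjusted p = 8.26e-05). Cln3, the fly counterpart of a gene of a human lysosomal storage disease, averaged 258 ± 72.5 CPM in seminal vesicle and 0.297 ± 0.00699 CPM in testis (log2 fold change 9.72 ± 0.44 SE, adjusted p = 3.12e-05). Hexo2, a hexosaminidase, averaged 391 ± 30 CPM in seminal vesicle and 3.13 ± 0.765 CPM in testis (adjusted p = 3.21e-05). Lamp1 is in this list and in the lipid handling list.

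Ecdysone synthesis, the best known use of sterol in flies, gave 4 tested genes of the 8 listed genes found among those counted. Of these 4, 2 were higher in seminal vesicle and the other 2 in testis, beside 42.1% and 44.5% of all tested genes. The genes sro, spo, spok and dib were too low to test. The list's median log2 fold change was 0.28. dare, the adrenodoxin reductase that feeds electrons to mitochondrial cytochromes, averaged 16.9 ± 0.867 CPM in seminal vesicle and 3.8 ± 0.509 CPM in testis (adjusted p = 0.000152). Cyp18a1, which breaks down ecdysone, averaged 2.36 ± 0.452 CPM in seminal vesicle and 0.416 ± 0.0937 CPM in testis (adjusted p = 0.00146). shd, which makes the active hormone from ecdysone, averaged 0.793 ± 0.545 CPM in seminal vesicle and 9.65 ± 1.45 CPM in testis (log2 fold change -3.67 ± 0.42 SE, adjusted p = 0.000422). Leaving out seminal vesicle replicate 1 gave -3.01 and leaving out replicate 2 gave -4.55.

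**Figure D4:**
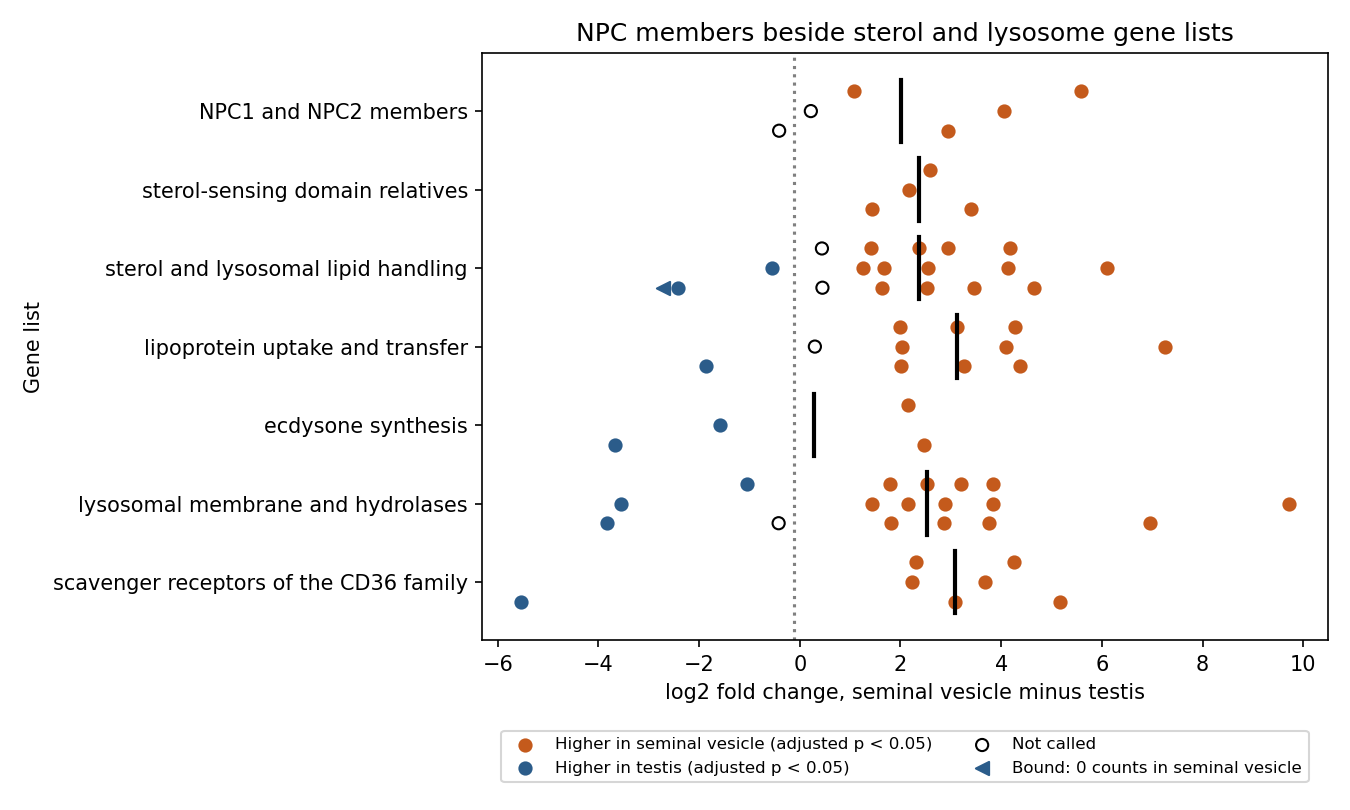
The log2 fold change, seminal vesicle minus testis, of each tested gene of the NPC families and of 6 gene lists. Black bars are list medians, the dotted line is the median of all tested genes (-0.11), filled points passed the test, and the arrow marks Lip1, drawn at its bound. The list medians run from 0.28 for ecdysone synthesis to 3.12 for lipoprotein uptake, with 2.01 for the NPC members.

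Markers of other cell types moved with tissue as well. Muscle markers (6 of 6 at 1 CPM or above in every library) summed to 4010.4 and 3102 CPM in seminal vesicle and to 594 and 637 CPM in testis. Epithelial markers (5 of 6 at 1 CPM or above in both seminal vesicle libraries and 6 of 6 in both testis libraries) summed to 1269.8 and 1501 CPM in seminal vesicle and to 187 and 159 CPM in testis. Hemocyte markers (3 of 6 in both libraries of each tissue) summed to 729 and 428 CPM in seminal vesicle and to 45 and 37.8 CPM in testis. Fat body markers (3 of 6 in both seminal vesicle libraries and 2 of 6 in both testis libraries, with Fbp1 at 0 in all 4 libraries) summed to 161 and 207 CPM in seminal vesicle and to 45.2 and 49.7 CPM in testis. Midgut markers (3 of 8 in both seminal vesicle libraries and 4 of 8 in both testis libraries, with epsilonTry at 0 in all 4 libraries and Jon65Aiii and betaTry at 0 in testis) summed to 206 and 195 CPM in seminal vesicle and to 40 and 41.5 CPM in testis. The midgut sums do not describe each gene, since of the 4 midgut genes tested 2 passed towards seminal vesicle and the other 2 towards testis, with a median log2 fold change of 0.42. Accessory gland and ejaculatory duct markers (9 of 10 in both seminal vesicle libraries and 3 of 10 in both testis libraries, with SP and Acp26Ab at 0 in testis) summed to 79.6 and 40.2 CPM in seminal vesicle and to 26.7 and 24 CPM in testis. Cyst cell and hub markers (5 of 6 in both seminal vesicle libraries and 6 of 6 in both testis libraries) summed to 647 and 722 CPM in seminal vesicle and to 92.1 and 97.2 CPM in testis. Here too the sum and the genes differ: of the 6 cyst cell and hub genes tested, 2 passed towards seminal vesicle and 3 towards testis, with a median log2 fold change of -0.39. Trachea and neuron markers (4 of 5 in both seminal vesicle libraries and 3 of 5 in both testis libraries) summed to 36.2 and 47.4 CPM in seminal vesicle and to 23.2 and 25.4 CPM in testis. Of the other lists, calls towards seminal vesicle and towards testis were 5 and 0 of 6 tested muscle genes, 5 and 1 of 6 epithelial, 3 and 0 of 3 hemocyte, 2 and 0 of 3 fat body, 7 and 1 of 9 accessory gland and duct, and 3 and 1 of 4 trachea and neuron genes. Among all tested genes, 42.1% were called towards seminal vesicle and 44.5% towards testis. Fas3 is in the epithelial and the cyst cell lists, and crq and apolpp are also in lists described above. Most of the fat body sum was apolpp, with 153 and 201 CPM in seminal vesicle and 41.4 and 44.6 CPM in testis. The part of these cell types in the levels of the NPC genes was not tested.

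The genes beside the members did not share one direction. Of the 16 other genes that lie next to a member or overlap its exons, 5 were higher in seminal vesicle (ath, Prosalpha6, Got2, foxo and Sec10) and 4 in testis (CG11227, Fancl, CG15543 and asRNA:CR45205). Among all tested genes, 42.1% were higher in seminal vesicle and 44.5% in testis. A mixed direction is thus not particular to the neighbours. Kal1, beside Npc2f, was not called (adjusted p = 0.286), though it passed as higher in testis with spike-in factors (0.00259). The other 6 were not tested. Of those, Ser6, CR33629 and lncRNA:CR43238 had 0 counts in all 4 libraries, lncRNA:CR42874 had 6 and 2 counts in seminal vesicle and 3 and 1 in testis, and CCHa1, a neuropeptide gene beside Npc2b, had 2 and 1 counts in seminal vesicle and 9 and 12 in testis. The sixth was asRNA:CR44192, given above.

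CG15543, 130 bp from Npc2g on the other strand, averaged 3.16 ± 2.05 CPM in seminal vesicle and 91.8 ± 5.43 CPM in testis (log2 fold change -4.90 ± 0.43 SE, adjusted p = 0.000152), opposite in direction to Npc2g. Leaving out seminal vesicle replicate 1 gave -4.30 and leaving out replicate 2 gave -5.75. Fancl, beside Npc2e, averaged 1.61 ± 1.36 CPM in seminal vesicle and 11.8 ± 0.813 CPM in testis (log2 fold change -2.95 ± 0.49 SE, adjusted p = 0.00185), with -2.18 when seminal vesicle replicate 1 was left out and -4.17 when replicate 2 was. CG11227, beside Npc1b, averaged 26.7 ± 16.8 CPM in seminal vesicle and 150.2 ± 4.93 CPM in testis (log2 fold change -2.50 ± 0.46 SE, adjusted p = 0.003), and -3.35 when seminal vesicle replicate 2 was left out. foxo, the transcription factor of the insulin pathway beside Npc2b, averaged 17.7 ± 0.421 CPM in seminal vesicle and 1.85 ± 0.547 CPM in testis (log2 fold change 3.26 ± 0.25 SE, adjusted p = 8.3e-05).

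The remaining neighbours higher in seminal vesicle lost that call with spike-in factors. Got2, a transaminase gene beside Npc2a, had a log2 fold change of 1.67 (adjusted p = 0.00143; 0.224 with spike-in factors), and Sec10, an exocyst subunit gene beside Npc2f, of 1.28 (0.000803; 0.593 with spike-in factors). Next to Npc1a, ath had 0.68 (0.0161) and the proteasome subunit gene Prosalpha6 0.79 (0.0138). With spike-in factors these turned to -0.39 for ath and -0.29 for Prosalpha6. ath failed the test, too, with library size only (0.241), with DESeq2 (0.0707), without testis replicate 1 (0.0661) and without testis replicate 2 (0.13), and Prosalpha6 with library size only (0.129) and without testis replicate 2 (0.102).

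Over the 4 libraries, the genes nearest to Npc2g by Euclidean distance in log2 CPM were CG31219 (distance 0.355), Seipin, a lipid droplet protein gene (0.437), and CG15155 (0.485). Seipin averaged 11.9 ± 0.634 CPM in seminal vesicle and 0.296 ± 0.0769 CPM in testis. The genes nearest to Npc2b were Bdbt (distance 0.0991), CG15916 (0.172) and Dhdds (0.209). Bdbt averaged 14.7 ± 1.51 CPM in seminal vesicle and 6.95 ± 0.499 CPM in testis. The call of each of these 3 was lost with spike-in factors, with an adjusted p of at least 0.83. The distance covers only 4 libraries of 2 tissues.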

How the data were processed

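Raw counts of reads per gene were deposited by the authors for each of 4 libraries, 2 of seminal vesicle and 2 of testis. Per the labels' protocols and series text, 50 bp single-end reads of stranded poly(A) libraries made from 200 ng of total RNA were mapped to FlyBase release 6.06, and HTSeq 0.6.1p1, TopHat2 2.1.0 and CASAVA 1.8.2 are named in the submitters' processing notes. The strand setting of the counting and its treatment of ambiguous reads are not given in the sources used here. Rows naming no gene (11% to 14.2% of the column totals, among them reads aligned to more than 1 place at 8.27% to 9.57%) and 96 spike-in rows stayed out of library sizes and tests, so reads shared by paralogs may be missing from a member. Sequence likeness among the members was not analysed here.

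Genes were filtered with filterByExpr (minimum count 10, minimum total 15), given TMM factors and fitted in edgeR 4.0.16 (R 4.3.3) with robust quasi-likelihood dispersions, and calls were made at an adjusted p of 0.05. SEs were obtained by dividing the absolute log2 fold change by the square root of the F statistic. Changes over 2-fold were tested with glmTreat. The fit was tested on simulated counts in which few genes changed, unlike these data, so that run does not check the scaling between the tissues. Symbols, positions and exon lengths come from Ensembl release 115, a newer annotation of the Release 6 assembly than the authors' (17172 of 17409 identifiers, 98.6%, had a position). The 95% intervals of the log2 fold changes were built from these SEs, so they include the spread between libraries. Counting intervals, binomial intervals and floors cover counting error only.

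The members and lists were chosen with earlier results of these data known. The list of sterol-sensing domain relatives is not complete: 1 gene is not reported here and is left out of its count and median. All members are named, and so are, in each list, the 2 most abundant genes by mean log CPM and up to 2 called ones of largest change, the neighbours of members, and the 3 genes nearest in log2 CPM (prior count 2) to the called members with the highest and the lowest fold change. Alternatives were other scalings, filters, DESeq2 1.42.0, limma 3.58.1 voom, a replicate block, a threshold of 0.01 and leaving out each library.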

Additional observations from a re-analysis of the deposited data

How the results depend on the processing

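Npc1a, Npc2a and Npc2g kept their call and direction in each alternative run, with log2 fold changes of 1.87 to 3.06, 2.98 to 4.20 and 4.56 to 5.94. Npc2b was not called with spike-in factors (0.00), and leaving out 1 library gave 0.95 to 1.17. Npc2f was negative with library size only (-0.14) and spike-in factors (-0.83), and leaving out 1 library gave -0.77 to 0.71. Npc2h was called higher in testis with library size only (-0.79) and spike-in factors (-1.46), and leaving out 1 library gave -0.74 to -0.11. The members higher in testis were thus 1 with library size only and 1 with spike-in factors, and 0 to 1 with 1 library left out. At an adjusted p of 0.01 they were 4 in seminal vesicle and 0 in testis. The cause of these moves was not tested.

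With spike-in factors 3272 genes in all were higher in seminal vesicle, against 4944. Of lipid handling genes higher in testis, 1 was left with the filter of 5 CPM in 2 libraries, 1 with DESeq2 and 0 to 3 with 1 library left out. Of lipoprotein genes, 2 were higher in testis with spike-in factors, 0 with the filter of 5 CPM and 0 to 1 with 1 library left out. Of ecdysone genes, the filter of 5 CPM left 1 higher in seminal vesicle and 1 in testis, where fewer genes were tested, DESeq2 left 1 in testis, and leaving out 1 library gave 1 to 2 in testis. Per kb of exon, the NPC2 share in testis was 53.4% for Npc2a, 12.3% for Npc2b and 31.2% for Npc2h, and that of Npc2b in seminal vesicle 2.65%.

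With the replicate block, 4834 genes were higher in seminal vesicle and 5122 in testis, and the members' calls were the same 4 and 0. The labels do not say that equal numbers share a day, and replicate differences in the tissues correlated at 0.0705 over 11737 genes. Fits with 1 library left out take the spread of the lone library from the other tissue. Over all results and settings, 283 comparisons were classed as kept. For fold changes this meant the same sign and side of the threshold, and for shares a value within the SD. With 2 libraries per tissue, a share with 1 library left out always lies within the SD. Those comparisons could only be classed as kept, so they say nothing on how stable the shares are. Counts of called genes were kept within a set ratio, so 9 lipid handling genes in place of 13 counted as kept. Further, 21 counts or shares moved more than this, 3 fold changes changed sign, 3 gained a call and 1 lost it. Low counts, at most 15 in any library, limit Npc1b, Npc2c, Npc2d, Npc2e, Npc2f and the testis level of Npc2g.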

Other observations

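Within the lysosome list, 3 of the 17 tested genes went the other way from Lamp1 and the cathepsins, named here after their values were seen. These 3 were higher in testis, as were 44.5% of all tested genes. Gal, the fly beta-galactosidase, averaged 2.11 ± 0.252 CPM in seminal vesicle and 25 ± 0.335 CPM in testis (edgeR, adjusted p = 3.63e-05). Gba1a, a glucocerebrosidase gene, averaged 0.135 ± 0.0396 CPM in seminal vesicle, from 3 counts, and 2.07 ± 0.203 CPM in testis, a ratio of summed counts of 0.067 with a 95% counting interval of 0.0135 to 0.204, while its paralog Gba1b averaged 2.08 ± 0.0608 CPM in seminal vesicle and 2.79 ± 0.15 CPM in testis and was not called (edgeR, adjusted p = 0.000605 and 0.193). Mppe averaged 8.36 ± 0.749 CPM in seminal vesicle and 17.2 ± 1.99 CPM in testis (edgeR, adjusted p = 0.0023).

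Among the lipid handling genes, 3 more are named after their values were seen, each called higher in seminal vesicle as were 42.1% of all tested genes. Lsd-2, a protein of the lipid droplet surface, averaged 359 ± 75.7 CPM in seminal vesicle and 14.3 ± 0.128 CPM in testis, and bmm, a triglyceride lipase, 159.8 ± 26.2 CPM in seminal vesicle and 27.3 ± 1.27 CPM in testis (edgeR, adjusted p = 5.34e-05 and 0.000154). Hr96, the nuclear receptor that responds to sterol in flies, averaged 115 ± 13.6 CPM in seminal vesicle and 22.4 ± 1.79 CPM in testis (edgeR, adjusted p = 0.000133).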
